A study of Mus musculus with 12 samples.

Results

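The Dlx family comprises 6 homeobox genes of the mouse, Dlx1 to Dlx6, and its members were taken as the rows that carry those 6 symbols among the 52535 gene symbols counted. They were measured by sequencing of poly(A) RNA in 3 cell lines of T-cell acute leukemia/lymphoma (T-ALL), 240, 242 and 352, each derived from a thymic lymphoma of 1 mouse that carried both a Dlx5 and an Akt2 transgene. The Lck promoter, which is active in thymocytes, drives both transgenes, and the Akt2 transgene encodes a myristoylated, constitutively active kinase. Each line gave 1 control library and 1 library from cells treated with PKF118-310, a small molecule that interferes with the binding of β-catenin to Tcf factors, so that each group held 3 libraries and every control carried the transgenes as well. The labels give neither a dose nor a time, though the study's text states both for its treated lymphoma cells.

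Dlx proteins are transcription factors that bind DNA through a homeodomain, and they descend from the same ancestor as the Distal-less gene of the fly. In the mouse the genes lie as 3 pairs, in each of which the genes face each other and are read toward a shared spacer: Dlx1 with Dlx2 on chromosome 2, Dlx4 with Dlx3 on chromosome 11 and Dlx6 with Dlx5 on chromosome 6. They are best known from the forebrain, where Dlx1, Dlx2, Dlx5 and Dlx6 act in the making of interneurons, and from the craniofacial skeleton, teeth, skin and placenta. They are not part of the usual program of T-cell development.

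The members share most of their homeobox, the stretch that encodes the homeodomain. Within a coding window of 180 bases, chosen as the one most alike in the other members, Dlx5 had 77.2% of its bases in common with Dlx2, 76.1% with Dlx1, 73.9% with Dlx6, 72.8% with Dlx3 and 67.2% with Dlx4. The most alike pair in that window was Dlx2 and Dlx3, at 82.8%. A stretch of 60 coding bases from the window is printed because it includes the codons of the DNA-contacting helix and because it shows how far a read from 1 member could match another. Capitals mark bases that differ from Dlx5. In each gene the stretch joins exons 2 and 3, and the genomic span therefore includes an intron (GENCODE release M21, build GRCm38, equal to mm10).
Dlx5: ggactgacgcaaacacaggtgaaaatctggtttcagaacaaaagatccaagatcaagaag
Dlx1: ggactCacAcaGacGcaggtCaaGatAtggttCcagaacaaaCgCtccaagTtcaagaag
Dlx2: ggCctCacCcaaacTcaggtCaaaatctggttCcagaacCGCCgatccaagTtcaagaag
Dlx3: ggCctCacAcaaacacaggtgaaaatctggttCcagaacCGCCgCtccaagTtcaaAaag
Dlx4: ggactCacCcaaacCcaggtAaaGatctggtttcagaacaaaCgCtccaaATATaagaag
Dlx6: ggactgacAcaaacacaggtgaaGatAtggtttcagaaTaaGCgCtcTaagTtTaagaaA
The spans are chr6:6878447-6879543 for Dlx5 (minus strand), chr2:71531139-71532305 for Dlx1 (plus strand), chr2:71544883-71545401 for Dlx2 (minus strand), chr11:95121881-95123450 for Dlx3 (plus strand), chr11:95141428-95141806 for Dlx4 (minus strand) and chr6:6865254-6867082 for Dlx6 (plus strand). Each of the other 5 genes differed from Dlx5 at 11 of the 60 bases. Over whole transcripts, the longest run of bases that Dlx5 shared without a mismatch with another member was 23 bases, with Dlx3, and the shortest of these longest runs was 13 bases, with Dlx2.

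Depth limited what could be seen of the weaker members. Total counts per library ranged from 604984 in treated cells of line 242 to 13766638 in treated cells of line 352, and the limit that a count of 0 allows (3 counts, counting error only) ranged from 0.207 to 5.15 CPM, a count relative to the TMM-scaled total of its library, with the highest limit in the treated library of line 242. That library held counts in 21241 genes, the most of the 6, and 11.8% of its counts were mitochondrial, against 1.84% to 3.1% in the other 5. Of 13 T-lineage markers 12 had counts in every library, with summed levels of 4734 to 6755 CPM in controls and 3382 to 6799 CPM in treated cells, and Ptcra was at 0 in the treated library of line 242. Of the 13, Cd3g, Cd4 and Rag2 differed between lines (edgeR, 5.32% of 10331 genes called), and 0 were called after PKF118-310 (0% of all genes). Cd4 was at 55.9 and 40.3 CPM in line 352 and at 374 to 605 CPM elsewhere (edgeR adjusted p = 0.0187). B cell markers summed to at most 3.43 CPM and erythroid markers to at most 0.317 CPM, with Hbb-bs at 0 throughout. Myeloid markers summed to 10.4 to 43.7 CPM in controls and 9.83 to 42.9 CPM in treated cells, nearly all of it Itgam, with Lyz2 at 0. Stromal markers reached 0.313 CPM in controls and 44.7 CPM in treated cells, and epithelial markers 0.219 CPM and 25.8 CPM.

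All 6 members had at least 1 count somewhere, but only Dlx1, Dlx2 and Dlx5 had counts in every library. Dlx5 was by far the most strongly counted member in all 6 libraries, Dlx1 was present at a moderate level in all 3 lines, and Dlx2 exceeded 8 counts only in the libraries of line 352. Dlx3, Dlx4 and Dlx6 never exceeded 3 counts. Dlx1 and Dlx5 passed the filter on low counts (filterByExpr, with treatment as the group), and the other 4 members did not.

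**Figure D1:**
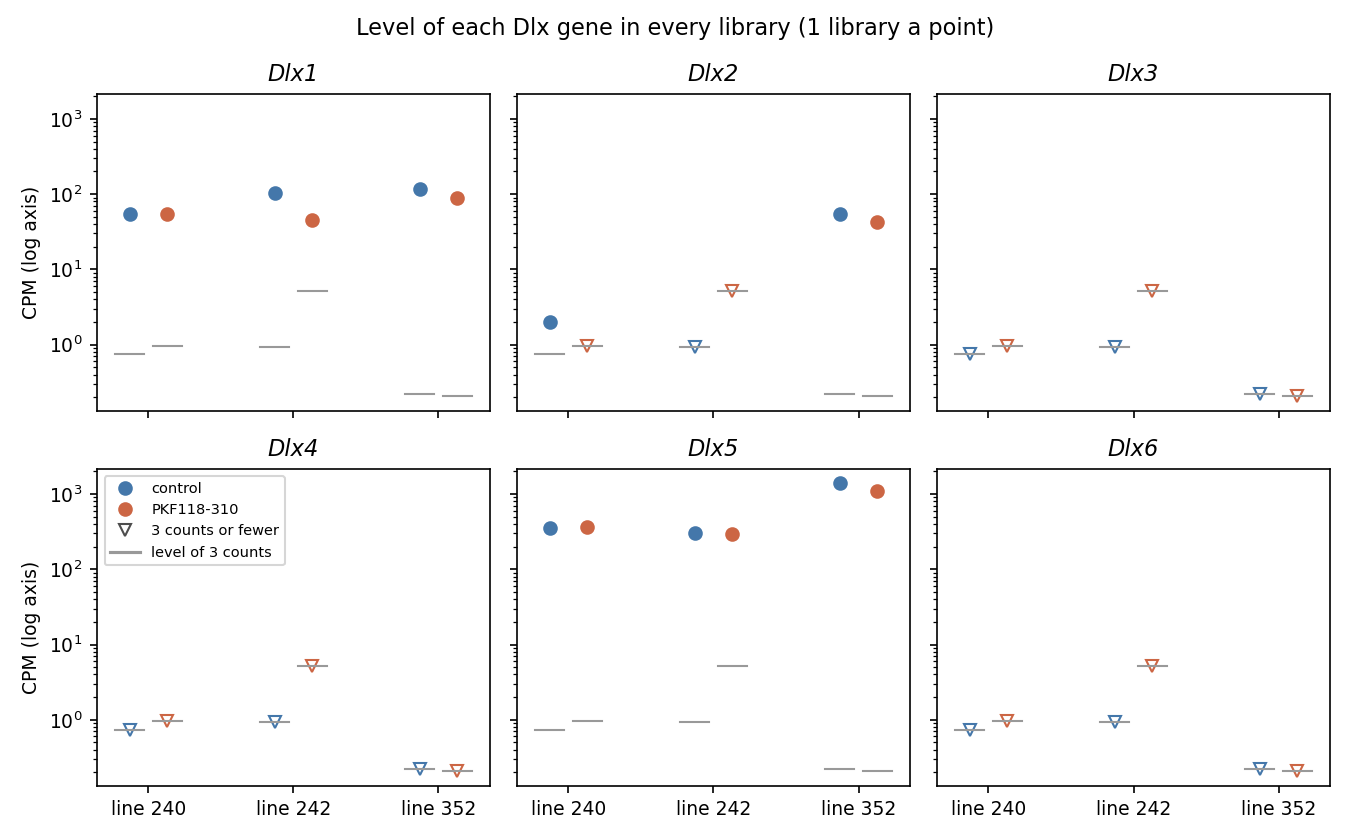
Level of each of the 6 Dlx genes in CPM on a log axis, by line (x axis) and group (color), 1 point per library. Open triangles stand for 3 counts or fewer and are drawn at the level of 3 counts, which the grey bars give for each library. Dlx5 lies between 294 and 1398 CPM, Dlx1 between 44.7 and 117 CPM, and Dlx2 rises clear of the grey bars only in line 352, apart from 8 counts in the control of line 240.

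Dlx5 (chr6:6877805-6882085, minus strand), the gene of the transgene, directs bone and craniofacial development and is an oncogene when expressed in thymocytes. Its level was 358 CPM in control and 362 CPM in treated cells of line 240, from 1450 and 1143 counts. In line 242 it was 302 and 294 CPM, from 966 and 171 counts, and in line 352 it was 1398 and 1084 CPM, from 19113 and 15696 counts. Both libraries of line 352 were thus above all 4 libraries of the other lines, whereas control and treated groups overlapped. Per kilobase of the longest annotated transcript, of 1423 bases, Dlx5 was at 206 to 255 CPM per kilobase in lines 240 and 242 and at 762 to 982 in line 352. This put it at ranks 163 to 232 of 21556 protein-coding genes in lines 240 and 242 and at ranks 40 to 60 in line 352. The counts are given per gene, so that transcripts of the transgene and of the mouse's own Dlx5 cannot be told apart, and no source used here gives the length of the transgene's transcript.

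The level of Dlx5 differed between the 3 lines (edgeR quasi-likelihood test, adjusted p = 0.0268), a call made for 5.32% of the 10331 genes tested. Line 352 exceeded line 240 by 1.78 ± 0.24 on the log2 scale (SE, adjusted p = 0.0305) and line 242 by 2.01 ± 0.24 (adjusted p = 0.0232). In these comparisons 4.38% and 7.24% of genes were called. Lines 240 and 242 were not separated, with a log2 difference of -0.22 ± 0.23 for 242 minus 240 (adjusted p = 0.725), where 0.397% of genes were called. The order was therefore 352 first, with 240 and 242 next to each other. The control and the treated library of a line were its only replicates. In bulk RNA, fewer cells that express a gene and less RNA per cell cannot be told apart.

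Dlx1 (chr2:71528113-71533981, plus strand), which acts with Dlx2 in forebrain interneurons, was detected in all lines. Its level was 53.9 CPM in control and 54.2 CPM in treated cells of line 240, from 218 and 171 counts. In line 242 it was 102 CPM in control and 44.7 CPM in treated cells, from 327 and 26 counts. In line 352 it was 117 and 87.6 CPM, from 1598 and 1268 counts. The highest 2 libraries were the controls of lines 352 and 242, and the lines overlapped because the treated library of line 242 was the lowest of the 6. Per kilobase of its 4111-base transcript Dlx1 was at 10.9 to 28.4 CPM per kilobase, against 206 to 982 for Dlx5. Dlx1 was not called between the 3 lines (edgeR adjusted p = 0.195), and the log2 difference of line 352 minus line 240 was 0.90 ± 0.28 (adjusted p = 0.146). Without line 242, that difference was 0.93 ± 0.13 (adjusted p = 0.000101), in a fit in which 44.7% of 11760 genes were called.

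Dlx2 (chr2:71543408-71546754, minus strand), the neighbor and partner of Dlx1, showed the sharpest contrast between lines. Line 352 gave 747 counts as control and 625 after PKF118-310, which correspond to 54.6 and 43.2 CPM. Line 240 gave 8 and 2 counts, or 1.98 and 0.634 CPM, and line 242 gave 1 count in each library, or 0.313 and 1.72 CPM. Among controls the level in line 352 was 27.6 times that in line 240 (95% counting interval 14 to 64.3) and 175 times that in line 242 (31.3 to 6910). Among treated libraries the ratios were 68.1 (18.8 to 564) and 25.1 (4.49 to 994). The intervals cover counting error between pairs of libraries and no spread between cultures. Per kilobase of its 2473-base transcript Dlx2 was at 22.1 and 17.5 CPM per kilobase in line 352, beside 28.4 and 21.3 for Dlx1 in the same libraries.

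Because Dlx2 had few counts outside line 352, it did not pass the filter, and its test is given from the planned fit with no filter on low counts. In that fit the log2 differences of Dlx2 were 5.26 ± 0.50 for 352 minus 240 (SE, edgeR adjusted p = 1.75e-23) and 6.68 ± 0.68 for 352 minus 242 (adjusted p = 2.95e-20), where 6.16% and 9.14% of 28529 genes were called and the medians over all genes were 0.02 and -0.32. The fitted differences depend on the prior count, since Dlx2 had 1 to 8 counts in the other lines. For Dlx5 this fit also gave a far smaller adjusted p for 352 minus 240 than the main fit did (edgeR, 2.99e-05 against 0.0305). The p values of Dlx2 are therefore not comparable with those given for Dlx5 above. Each line again had only its control and its treated library. Over the 3 lines the fit called Dlx1, Dlx2 and Dlx5, and 10.5% of all genes, and did not call Dlx3, Dlx4 and Dlx6. With the line as the group of the filter, an alternative added after the data were seen, Dlx2 passed only through the line in which it was high, so that its value there (adjusted p = 0.0138, 7.15% of 11064 genes called) is a description and no support. DESeq2 called Dlx5 (adjusted p = 6.6e-17) and not Dlx1 (adjusted p = 0.212), with 16.1% of genes called.

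The region before the start site of Dlx2 is shown because this gene was on in 1 line and at or near the limit in the others. The 250 bases that precede its RefSeq start (GRCm38.p6, chr2:71546755-71547004, minus strand) are given with each CG dinucleotide in capitals.
Dlx2: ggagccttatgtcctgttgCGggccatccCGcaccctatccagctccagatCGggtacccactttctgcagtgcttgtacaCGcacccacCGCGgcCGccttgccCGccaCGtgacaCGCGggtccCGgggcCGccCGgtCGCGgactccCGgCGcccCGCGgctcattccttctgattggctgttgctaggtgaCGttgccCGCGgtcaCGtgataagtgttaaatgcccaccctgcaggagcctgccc
It contains 24 CG dinucleotides, against a median of 6 over 32851 RefSeq promoter entries of the same length, of which 12% held at least as many. Its GC content is 66.4%, against a median of 52.4%. The RefSeq entry for Dlx1 (chr2:71529195-71529444, plus strand) lies inside the gene as the files give it, in an annotated first exon, and holds 22 CG dinucleotides. The Tcf/Lef core CTTTGA was searched on both strands because PKF118-310 acts on Tcf factors, and the homeodomain core TAATTA because the Dlx proteins bind such sites. Neither occurred in the 250 bases before Dlx2 or in the Dlx1 entry, while CTTTGA occurred in 13.8% and TAATTA in 4.84% of all entries. These letters are absent from the windows examined, which says nothing of sites elsewhere. From ChIP-seq with a Tcf7 antibody, the study names Dlx1 as a β-catenin target. Those ChIP-seq data were not examined here. Promoter entries were found for 2 of the 6 members.

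Dlx3, which acts in skin, hair and placenta, Dlx4 and Dlx6, the partner of Dlx5 in the branchial arches and limbs, were at the limit of detection. Dlx3 (chr11:95120119-95125296, plus strand) had 1 count in the control of line 352, 1 in the treated library of line 242 and 0 in the other 4. Dlx4 (chr11:95140447-95146263, minus strand) had 2 counts in the treated library of line 242, 1 in the control of line 240, 1 in each library of line 352 and 0 elsewhere. Dlx6 (chr6:6863334-6868568, plus strand), which lies next to Dlx5, had 3 counts in the treated library of line 242 and 0 in the other 5. In the deepest libraries, those of line 352, 0 counts of Dlx6 allow a level of up to 0.219 CPM in controls and 0.207 CPM in treated cells, beside 1398 and 1084 CPM of Dlx5. Of the 10 counts of these 3 genes over all libraries, 6 came from the treated library of line 242, the shallowest, in which stromal and epithelial markers were also at their highest. The part of this in those counts was not tested.

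As a share of all counts of the 6 genes, Dlx5 took 86.5% (95% exact binomial interval 84.7 to 88.1) in the control of line 240, 74.7% (72.2 to 77) in that of line 242 and 89.1% (88.6 to 89.5) in that of line 352. Dlx1 took 13% (11.4 to 14.7), 25.3% (22.9 to 27.7) and 7.45% (7.1 to 7.81). Dlx2 took 3.48% (3.24 to 3.73) in line 352. After PKF118-310 the shares in lines 240 and 352 were within these intervals, with 86.9% and 89.2% for Dlx5. In line 242 the share of Dlx1 was 12.7% (8.5 to 18.1) from 204 counts in all, below the interval of its control. The shares are not corrected for transcript length.

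Since PKF118-310 acts on β-catenin and Tcf factors, the other comparison asked whether the family changed when these were inhibited. No member was called (edgeR, 0 of the 2 members tested), nor was any of the 10331 genes (0% called, 570 at an unadjusted p under 0.05). DESeq2 called 0.436% of genes and the fit with no filter 1.09%, again with 0 members. Dlx1 had a mean of 91 ± 33 CPM in controls and 62.1 ± 22.5 CPM in treated cells (SD, n = 3), and its log2 change was -0.44 ± 0.24 (SE, adjusted p = 0.842). Dlx5 had 686 ± 617 CPM in controls and 580 ± 438 CPM in treated cells (SD, n = 3), with a log2 change of -0.10 ± 0.19 (adjusted p = 0.956). Dlx2, in the planned fit with no filter on low counts, had a log2 change of -0.44 ± 0.44 (edgeR adjusted p = 0.797). The median change over all genes in that fit was 0.51.

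Within the lines, Dlx1 in treated cells was 1.01 times its control in line 240 (95% counting interval 0.819 to 1.24), 0.437 times in line 242 (0.281 to 0.652) and 0.749 times in line 352 (0.696 to 0.807). Dlx5 was 1.01 times its control in line 240 (0.935 to 1.09), 0.972 times in line 242 (0.821 to 1.15) and 0.776 times in line 352 (0.759 to 0.792). Dlx2 was 0.79 times its control in line 352 (0.709 to 0.88), and with 1 to 8 counts its ratios in lines 240 and 242 had intervals of 0.0332 to 1.61 and 0.07 to 431. In line 352 all 3 detected members were therefore lower in the treated library by similar factors, and in line 240 Dlx1 and Dlx5 were level. Each of these ratios rests on 1 library per condition and has no replicate check, and whether the change differed between lines could not be tested. Without line 242, whose treated library was the shallowest, 10.9% of 11760 genes were called after PKF118-310, and the members were again not called: Dlx1 had a log2 change of -0.25 ± 0.13 (edgeR adjusted p = 0.245), Dlx2 of -0.39 ± 0.20 (adjusted p = 0.23) and Dlx5 of -0.18 ± 0.13 (adjusted p = 0.43). Dlx2 passed the filter of that fit only through line 352.

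**Figure D2:**
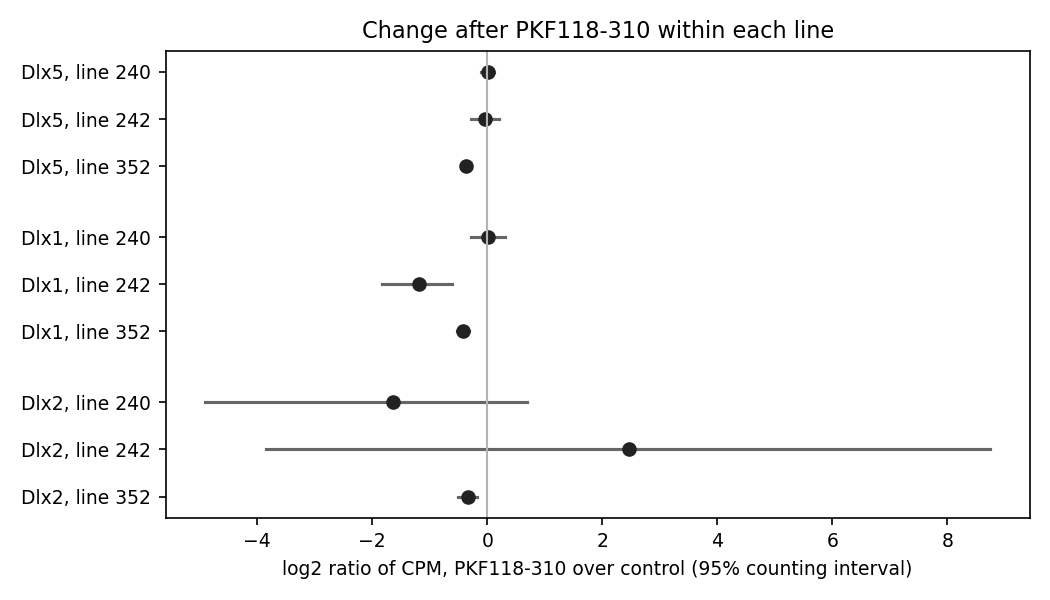
Log2 ratio of the CPM after PKF118-310 over control (x axis) for Dlx5, Dlx1 and Dlx2 in each of the 3 lines (rows), 1 library per condition. Points are the ratios and bars their 95% counting intervals. All 3 genes lie below 0 in line 352, at -0.37, -0.42 and -0.34, Dlx1 alone is lower with an interval clear of 0 in line 242, and the bars of Dlx2 in lines 240 and 242 are wide.

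Antisense and opposite-strand transcripts lie at each pair. Dlx1as (chr2:71516454-71537891, minus strand), a noncoding transcript that overlaps Dlx1 on the other strand, was the only one with steady counts, at 7.17, 7.82 and 8.7 CPM in the controls of lines 240, 242 and 352 and at 5.71, 15.5 and 4.83 CPM in the treated libraries. It did not follow Dlx2 across the lines: the log2 difference of line 352 minus line 240 was 0.07 ± 0.61 (edgeR adjusted p = 0.966). Its log2 change after PKF118-310 was -0.12 ± 0.52 (adjusted p = 0.988). In the annotation 335 exonic bases belong to both genes, which is 6.21% of the exonic bases of Dlx1 and 20.6% of those of Dlx1as. Whether strand was used in counting is not stated, and without it reads from the shared bases cannot be told apart. Dlx6os1, the antisense transcript known as a partner of Dlx proteins in the forebrain, had 4 counts in the treated library of line 242, 3 in the control of line 352 and 0 elsewhere. Dlx4os had 2 counts in all, and Dlx6os2 none.

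The genes that flank the 3 pairs, 3 on each side, were measured for comparison. Of these 18 neighbors 10 were tested, and 0 of 10 were called over the 3 lines (edgeR, 5.32% of all genes called) or after PKF118-310 (0%). Between pairs of lines, Metap1d, a peptidase gene 2.9 kb from Dlx1, was called higher in line 352 than in line 242 by 1.16 ± 0.19 (adjusted p = 0.039, 7.24% of all genes called), and its difference from line 240 was 0.31 ± 0.17 (adjusted p = 0.359). DESeq2 called Metap1d and Pdk1 over the 3 lines (16.1% of all genes called), and the fit with no filter called Metap1d, Pdk1 and Sem1 (10.5%). Without line 242, Asns, Pdk1 and Sem1 were called between lines 352 and 240 (44.7%) and Itga6, Kat7 and Pdk1 after PKF118-310 (10.9%). On the other side, Itga6, which encodes an integrin chain, ranged from 122 to 215 CPM (adjusted p = 0.649), and Platr26 had at most 3 counts. The kinase gene Pdk1 had log2 differences of -1.44 and -1.39, opposite in sign to those of Dlx2 (adjusted p = 0.146). Around Dlx5, Sdhaf3 at 73.9 kb had log2 differences of 0.36 and -0.36 (adjusted p = 0.779) and Sem1 at 284.7 kb 0.51 and 0.84 (adjusted p = 0.112), against 1.78 and 2.01 for Dlx5. Around Dlx3 and Dlx4, the acetyltransferase gene Kat7 was at 115 to 154 CPM, while Itga3, Pdk2, Samd14 and Tac4 had at most 10 counts in any library.

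**Figure D3:**
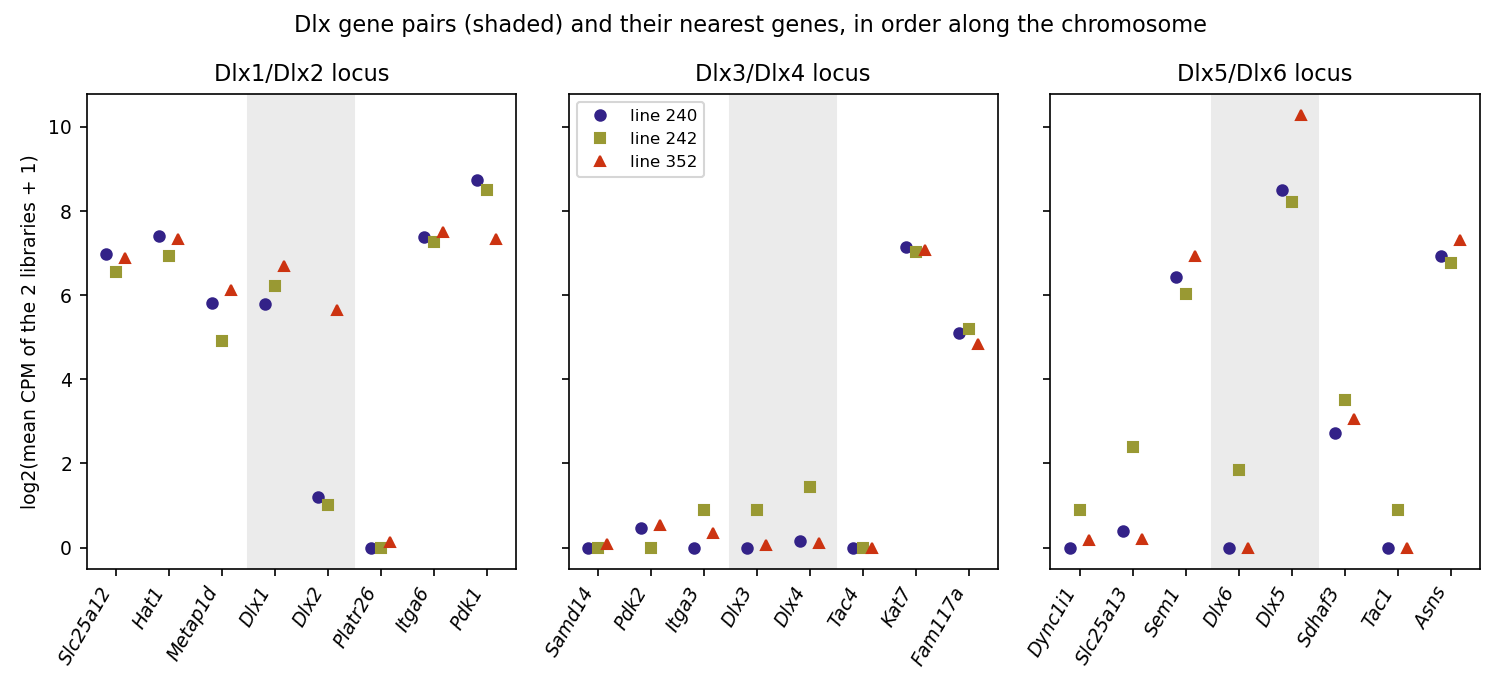
Level of the Dlx genes (shaded) and of the 3 nearest named genes on each side, in chromosomal order without distances, as log2 of the mean CPM of the 2 libraries of a line plus 1. Symbols stand for lines 240, 242 and 352. Dlx2 and Dlx5 stand out in line 352, and of the 10 flanking genes tested 0 were called over the 3 lines and Metap1d between lines 352 and 242. The raised squares of Dlx3, Dlx4 and Dlx6 are 1, 2 and 3 counts in the treated library of line 242.

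The other genes of the pathway were taken from lists. Of 13 genes that the study or textbooks ascribe to Dlx proteins as targets, 7 were tested, 2 differed between lines (edgeR), both highest in line 352 (5.32% of all genes called), and 0 were called after PKF118-310, where the fit called 0% of all genes. The semaphorin coreceptor Nrp2, a gene repressed by Dlx1 and Dlx2 in the forebrain, was at 139 and 209 CPM in line 352, at 40 and 97.9 CPM in line 242 and at 0.741 and 1.27 CPM in line 240 (control first, adjusted p over lines = 0.0122). Notch3, which encodes a Notch receptor, was at 586 and 516 CPM in line 352, at 308 and 361 in line 240 and at 189 and 137 in line 242 (adjusted p = 0.0468). Notch1 followed the same order, from 252 to 1927 CPM, without passing the threshold (adjusted p = 0.0655). Other listed targets were not highest in line 352. Ccnd1 was at 61.3 and 96.6 CPM there, at 185 and 160 CPM in line 240 and at 254 and 67 CPM in line 242. Irs2, with few counts, was at 0.585 and 0.553 CPM in line 352, at 10.6 and 5.07 CPM in line 240 and at 1.56 and 10.3 CPM in line 242. The median log2 difference of line 352 minus 240 over these 7 genes was 0.72, and over all genes it was -0.00. Gad1, Gad2, Sp7 and Bglap, which mark interneurons and osteoblasts, had at most 7 counts in any library.

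Of 5 partners and antagonists of Dlx proteins, 2 were tested, 1 differed between lines (5.32% of all genes called) and 0 were called after PKF118-310 (0%). Msx1 and Msx2, homeodomain proteins that oppose Dlx proteins, were at 0 counts in all 6 libraries. Maged1, which encodes a Dlx-binding protein of the MAGE family, was at 91.9 and 67 CPM in line 242, at 51.6 and 59.2 CPM in line 352 and at 6.18 and 1.58 CPM in line 240 (edgeR adjusted p = 0.0317). Smad4 was at 67.4 to 158 CPM (adjusted p = 0.116).

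Of 13 genes of BMP signalling with Trp63, which act upstream of Dlx genes in several tissues, 8 were tested, 3 differed between lines (5.32% of all genes called) and 0 were called after PKF118-310 (0%). The receptor gene Bmpr1a was at 119 and 132 CPM in line 242, at 60.6 and 51.4 CPM in line 352 and at 1.24 and 2.22 CPM in line 240 (edgeR adjusted p = 0.0122). Id3, a direct BMP response gene, was highest in line 352, at 56.6 and 102 CPM, against 13.3 and 8.24 CPM in line 240 (adjusted p = 0.0474). The signal transducer Smad1 was lowest there, at 1.02 and 2.14 CPM, against 15.6 and 30.9 CPM in line 242 (adjusted p = 0.0487). Thus the called genes of this list did not share 1 order of lines. Id1 was at 36.3 and 47.7 CPM in line 352 and at 0.317 to 15.9 CPM elsewhere (adjusted p = 0.0812).

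Of 21 other homeobox genes known in T-ALL or thymocytes, 5 were tested, and none of the 5 was called between lines (5.32% of all genes called) or after PKF118-310 (edgeR). Tlx1, Tlx2, Tlx3, Hoxa11, Nkx2-5 and Hhex were at 0 counts in every library. Zeb1 was at 129 and 98.4 CPM in line 352 and at 370 and 211 CPM in line 242 (adjusted p over lines = 0.068), and Satb1, a chromatin organizer of thymocytes, was at 330 to 777 CPM (adjusted p = 0.274). Pbx2 and Pbx3, whose products are homeodomain partners of Hox proteins, were at 30.9 to 68.2 CPM and 20.6 to 42.4 CPM. Akt2, the gene of the other transgene, was lowest in the line in which Dlx5 was highest, at 181 and 160 CPM in line 352 and at 534 to 748 CPM in the other lines (adjusted p = 0.0251). As for Dlx5, transcripts of the transgene and of the mouse's own Akt2 cannot be told apart. Lck, the gene whose promoter drives both transgenes, was at 368 to 720 CPM (adjusted p = 0.408) and Akt1 at 185 to 324 CPM (adjusted p = 0.366).

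**Figure D4:**
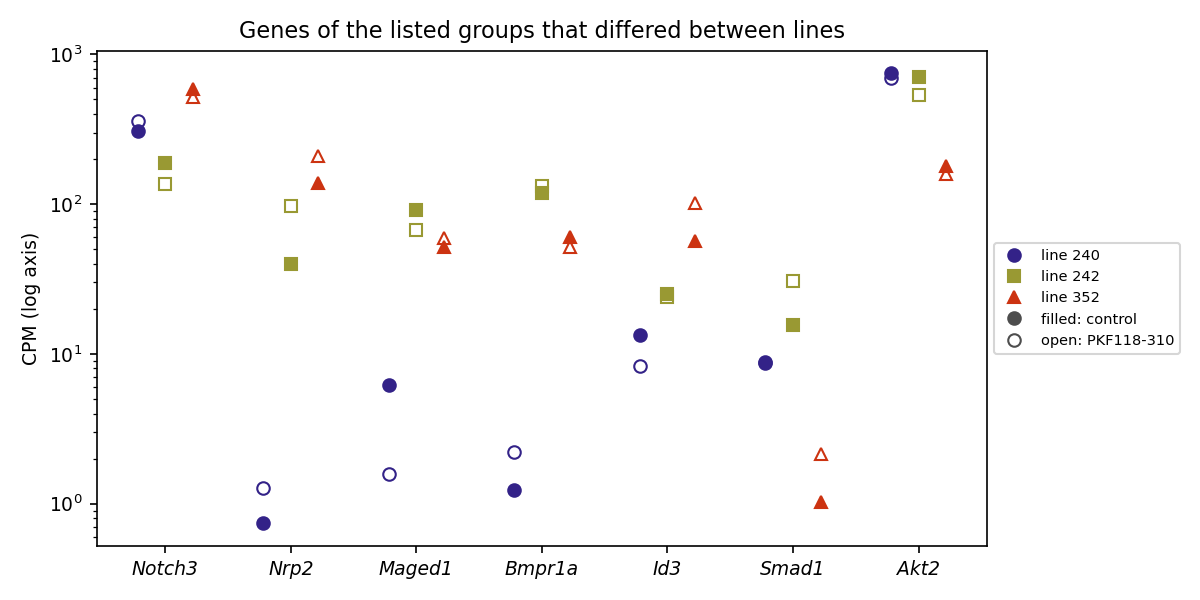
Level in CPM (log axis) of the 7 genes named from the pathway lists that differed between lines, with lines 240, 242 and 352 as circles, squares and triangles, filled for control and open for PKF118-310. Line 240 is lowest for Nrp2, Maged1, Bmpr1a and Id3, and line 352 is highest for Notch3, Nrp2 and Id3 and lowest for Smad1 and Akt2.

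Finally, the genes most like each detected member across the 6 libraries were taken by Pearson's r of log2 CPM, as a description of 6 points that share lines and depth. Dlx5 was followed most closely by Leng8 (r = 0.997), Emc10 (0.996), Stk3 (0.996), Junb (0.995) and Ankrd26 (0.993). Leng8, for example, was at 283 and 245 CPM in line 352 and at 80.7 to 104 CPM elsewhere. Dlx2 was followed by Phlpp2 (r = 0.996), Cacnb3 (0.993), Pla2g16 (0.992) and Clta (0.988), all highest in line 352. Dlx1 was followed by Zfp219 (r = 0.994), the forkhead gene Foxb1 (0.981), Nin (0.980), Zc3h4 (0.975) and Polr2m (0.973), and like Dlx1 these were lowest in the treated library of line 242. The candidates ranked were 9060 genes for Dlx1 and Dlx5 and 9061 for Dlx2.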

How the data were processed

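Poly(A) RNA was prepared with a stranded kit from 3 lines, each as control and after PKF118-310. Raw read counts per gene were deposited by the authors for 2 lanes of each library. Alignment to mm10 and counting were done with HISAT2 and HTSeq according to the submitters' processing notes, which also list edgeR, whereas the study's methods name another aligner. No source used here gives the strand setting of counting. The 2 lanes were summed, since the labels treat them as technical replicates of the same library, although a supplement of the study speaks of separate cultures. For Dlx1, Dlx2 and Dlx5 the lanes differed in 0 of 15 exact two-sided binomial tests at p under 0.05 (smallest p = 0.0602), those with at least 8 counts.

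Counts were fitted in R 4.3.3 with edgeR 4.0.16 (filterByExpr, TMM, glmQLFit and glmQLFTest), with treatment and line as terms and Benjamini-Hochberg adjustment over all genes kept, threshold 0.05. Libraries of a number come from the same cell line and hence the same mouse, which pairs them, and their deviations from the group means correlated at 0.67, 0.30 and 0.79. Nothing says that the libraries of a line came from separate animals. DESeq2 1.42.0, other scalings and filters, single lanes and leaving out each line were alternatives. The procedure was tested on simulated data with the same dispersion for every gene, which does not measure its power in these libraries. Ratios have exact conditional binomial intervals and shares Clopper-Pearson intervals (95%, counting error only). Named genes were the 6 members, Dlx-named transcripts, the 3 nearest genes on each side, up to 4 genes of smallest p per list, and the 5 genes most like a member of at least 10 CPM, apart from genes that are not reported here. The members and lists were chosen with earlier results of these data known. A few other listed genes were named after their values were seen, where they were at or near 0.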

Additional observations from a re-analysis of the deposited data

How the results depend on the processing

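No member was called after PKF118-310 under any of the 10 alternatives run, including the fit with no replicate block, in which the pairing by line was dropped and 0 members were called, and the change of Dlx1 stayed negative throughout. It was -0.44, and with a line left out it ranged from -0.75 (without 240) to -0.25 (without 242). That of Dlx2 was -0.44 with no filter, -0.45 with the filter by line, -0.10 without 240 and -0.39 without 242. The log2 change of Dlx5 after PKF118-310 was -0.10, and with a line left out it ranged from -0.20 (without 240) to 0.02 (without 352). Between lines, where 1 member (Dlx5) was called, 3 were called with no filter on low counts (Dlx1, Dlx2 and Dlx5) and 2 with the filter by line (Dlx2 and Dlx5). Leaving out a line gave 0 members without 352, 2 without 240 and 3 without 242. The genes called were 865 of 11859 without 240 and 5257 of 11760 without 242. Dlx2 was among the members called in both of these fits. As with the filter by line, it passed their filter only through line 352, in which it was high. Its calls there are a description and no support. Dlx5 was called in the same 2 pairs of lines under each scaling, with DESeq2 and with the filter by line. The summed level of the 6 genes in controls was 796 CPM and moved to between 794 and 808 CPM with single lanes or library totals. Over all genes, 550 were called between lines and 0 after PKF118-310; these counts were 3009 and 312 with no filter, 1665 and 45 with DESeq2, 5257 and 1285 without 242, 865 and 7 without 240, and 209 and 3 without 352. The count between lines was 917 with treatment left out and 847 with lane 1 alone. Library totals moved the median log2 difference of line 352 minus 242 to 0.15, and no filter moved the median change after PKF118-310 to 0.51. Depth in the treated library of line 242 limits Dlx3, Dlx4 and Dlx6.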
